A study of Drosophila melanogaster with 18 samples.

Results

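The regions described here are peaks that the vertebrate zinc finger proteins ZKSCAN3 and ZKSCAN4 both gave in Drosophila S2 cells away from gene starts. They were defined by 2 rules: a ZKSCAN3 peak had to overlap a ZKSCAN4 peak by at least 1 bp, and it had to lie clear of the 500 bp on each side of the start of every gene in the male count table. Of 8991 ZKSCAN3 peaks, 2467 met both rules (27.4%), which was 43.6% of the 5659 ZKSCAN3 peaks that overlapped a ZKSCAN4 peak. On the ZKSCAN4 side, 2571 of 8745 peaks (29.4%) were overlapped by these regions, and 157 regions overlapped more than 1 ZKSCAN4 peak. They are called shared distal peaks below. The peak calls themselves chose the members, so their overlap and their distance from gene starts are a description and not a finding.

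The peaks came from anti-HA ChIP-seq in S2-DRSC cells, an embryonic Drosophila line with hemocyte-like properties, that stably carried HA::ZKSCAN3 or HA::ZKSCAN4 under a copper-inducible promoter (10 µM copper in the labels, where the methods of the study give another concentration). Each protein had 2 ChIP replicates, which the authors merged into 1 peak list, so peaks could not be compared between replicates. For 1 ZKSCAN3 replicate the genotype label names HA::ZKSCAN4, whereas its title and source name ZKSCAN3. RNA-seq came from larval fat body with 2 libraries per group. The male libraries were from L3F larvae, the feeding stage of the third instar, without gonads, and all carried the cgGal4 driver: cgGal4 alone (WT), with M1BP RNAi (M1BPi), with HA::ZKSCAN3 (ZKSCAN3; the methods describe a myc tag), or with both (M1BPi + ZKSCAN3). The wild-type female libraries were from L3F and from L3W, the wandering stage that follows. The cg driver is known to act in hemocytes as well as in fat body. Peaks and RNA were therefore from different cells, and no RNA of S2 cells or peak of fat body entered any comparison.

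As background, ZKSCAN3 and its paralogue ZKSCAN4 are vertebrate transcription factors with a SCAN domain, a KRAB domain and zinc fingers, and ZKSCAN3 is known as a repressor of autophagy genes. M1BP is the Drosophila zinc finger protein that binds Motif 1, a core promoter element close to the start of many constitutively expressed genes. Regions far from gene starts that transcription factors occupy often act as enhancers, which in flies lie largely in introns and between genes and carry short recognition sequences for several factors. Among these, GATA factors such as Serpent, the regulator of fat body and blood cell fate, bind GATA sites, GAGA factor (Trithorax-like) and Pipsqueak bind GAGAG repeats, and AP-1 (Kayak and Jra) binds TGANTCA.

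The sequences of the 201 bp around the peak centre are shown first for the regions that stand for the main sequence classes, read from the plus strand of the RefSeq Release 6 genome, the dm6 build of the peaks. Capitals mark the GATA site GATAAG, the Motif 1 letters GGTCACAC, the repeat GAGAGAG or the word CAGATACA on either strand. All were chosen among the 1619 members with no exon base in the window, with 1 major arm left out of the choice. The first 3 had the highest ZKSCAN3 scores among those that held GATAAG. They lie in introns of shep, an RNA-binding protein gene (chr3L:5183582-5183782), of CG3764 (chr3L:17008133-17008333) and of Smr, which encodes the corepressor Smrter (chrX:12735083-12735283).
shep: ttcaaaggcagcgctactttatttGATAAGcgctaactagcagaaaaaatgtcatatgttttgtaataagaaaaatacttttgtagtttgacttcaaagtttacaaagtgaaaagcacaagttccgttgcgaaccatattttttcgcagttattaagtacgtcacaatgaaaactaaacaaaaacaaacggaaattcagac
CG3764: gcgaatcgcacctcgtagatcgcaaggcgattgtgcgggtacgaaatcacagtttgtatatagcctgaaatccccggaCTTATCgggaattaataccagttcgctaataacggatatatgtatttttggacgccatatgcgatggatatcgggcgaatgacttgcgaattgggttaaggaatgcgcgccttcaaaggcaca
Smr: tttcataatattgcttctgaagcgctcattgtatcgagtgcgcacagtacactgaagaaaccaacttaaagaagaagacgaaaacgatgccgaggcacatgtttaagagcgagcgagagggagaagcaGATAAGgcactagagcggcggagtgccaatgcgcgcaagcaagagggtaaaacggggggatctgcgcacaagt
The next 3 had the highest scores in that choice among those with the Motif 1 letters GGTCACAC. They lie in introns of CG5953 (chr2L:16526553-16526753) and of Nedd4, a ubiquitin ligase gene (chr3L:17533284-17533484), and between genes with CG13970 as the nearest (chr2L:20115919-20116119).
CG5953: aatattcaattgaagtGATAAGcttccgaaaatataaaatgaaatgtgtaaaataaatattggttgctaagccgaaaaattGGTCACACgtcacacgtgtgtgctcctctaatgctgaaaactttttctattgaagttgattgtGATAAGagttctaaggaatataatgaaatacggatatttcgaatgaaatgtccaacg
Nedd4: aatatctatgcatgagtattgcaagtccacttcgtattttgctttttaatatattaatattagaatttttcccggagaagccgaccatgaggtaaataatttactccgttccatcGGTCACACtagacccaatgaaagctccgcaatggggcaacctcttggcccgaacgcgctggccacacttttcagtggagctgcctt
CG13970: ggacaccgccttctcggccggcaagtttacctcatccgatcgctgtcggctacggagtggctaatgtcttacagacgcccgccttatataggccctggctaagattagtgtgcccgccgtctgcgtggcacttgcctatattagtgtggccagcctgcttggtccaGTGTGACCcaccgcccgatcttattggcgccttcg
The 2 with the highest scores in that choice and neither of these sites lie in introns of Top1, the gene of DNA topoisomerase I (chrX:15323101-15323301), and of Rtnl1, a reticulon gene of the endoplasmic reticulum (chr2L:5000398-5000598). Both peaks overlap an annotated transcript start other than the gene starts of the rule.
Top1: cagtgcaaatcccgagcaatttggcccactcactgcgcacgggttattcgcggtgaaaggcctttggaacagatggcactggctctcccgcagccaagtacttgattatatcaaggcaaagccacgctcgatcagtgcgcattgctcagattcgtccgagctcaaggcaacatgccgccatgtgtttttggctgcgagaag
Rtnl1: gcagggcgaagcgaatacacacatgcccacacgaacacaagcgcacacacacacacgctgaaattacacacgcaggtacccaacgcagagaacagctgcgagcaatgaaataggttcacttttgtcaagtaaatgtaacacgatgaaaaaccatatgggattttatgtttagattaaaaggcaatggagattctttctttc
The last 4 show sequences that were chosen after the shares of all short words had been seen. GAGAGAG is shown in introns of tara (chr3R:16242602-16242802) and of br, the ecdysone-induced Broad gene (chrX:1622073-1622273), at the highest ZKSCAN3 scores in that choice. The peaks of tara and br also overlap such another transcript start. CAGATACA is shown in lncRNA:CR45054 (chr3R:10086251-10086451) and close to lncRNA:CR45169 (chr3L:10849056-10849256), at the highest ZKSCAN4 scores in that choice.
tara: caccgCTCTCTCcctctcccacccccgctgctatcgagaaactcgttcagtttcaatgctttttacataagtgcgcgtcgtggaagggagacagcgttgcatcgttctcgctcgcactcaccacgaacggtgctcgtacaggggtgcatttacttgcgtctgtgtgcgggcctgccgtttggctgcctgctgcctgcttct
br: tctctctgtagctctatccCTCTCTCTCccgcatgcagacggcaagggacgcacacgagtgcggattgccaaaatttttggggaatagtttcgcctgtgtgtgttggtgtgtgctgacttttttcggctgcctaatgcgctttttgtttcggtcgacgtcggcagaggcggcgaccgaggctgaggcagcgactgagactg
lncRNA:CR45054: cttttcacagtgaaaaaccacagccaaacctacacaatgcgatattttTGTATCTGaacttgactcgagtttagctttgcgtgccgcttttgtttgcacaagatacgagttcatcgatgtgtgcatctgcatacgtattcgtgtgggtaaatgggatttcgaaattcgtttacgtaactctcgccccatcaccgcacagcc
lncRNA:CR45169: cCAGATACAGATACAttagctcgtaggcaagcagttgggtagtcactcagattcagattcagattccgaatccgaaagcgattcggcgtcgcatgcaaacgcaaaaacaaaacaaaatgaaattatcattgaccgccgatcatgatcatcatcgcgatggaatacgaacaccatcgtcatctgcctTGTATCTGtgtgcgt

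The Motif 1 letters were rare in these regions, and GAGA repeats were the fixed motif whose share in the peak centres stood furthest above that of the flanks. Of 11 motifs, each searched on both strands in the 201 bp around the centre of the 2445 shared distal peaks on the major arms, GGTCACAC was present in 10 (0.41%, 95% Wilson interval 0.22 to 0.75%). The same letters were in 0.43% of 664860 windows of that length tiled over the arms and in 0.33% of the flanking windows 1000 bp away. In the shared peaks at promoters, by contrast, 2.69% had GGTCACAC. DRE, the TATCGATA element of housekeeping promoters, showed the same order, with 6 shared distal peaks (0.25%), 0.56% of arm windows and 2.76% of the shared promoter peaks. These are shares of regions with a match to the letters, and a match is not a bound site.

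GATAAG was the most frequent of the 11, in 324 shared distal peaks (13.3%, interval 11.97 to 14.65%). It was in 10.8% of their flanks (9.92 to 11.7%) and in 8.32% of all arm windows, so the share rose from the arms to the flanks and again to the centres. In the other peak classes GATAAG was in 10.6% of shared promoter peaks, 11.1% of distal peaks with ZKSCAN3 only and 11.8% of distal peaks with ZKSCAN4 only. Of the members, 34 had at least 2 copies and 3 had at least 3, and 1 had both GATAAG and GGTCACAC.

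GAGAGAG was in 217 shared distal peaks (8.88%, interval 7.81 to 10.1%), against 3.58% of their flanks and 2.45% of arm windows. The distal peaks with ZKSCAN3 only were at 9.59%, the shared promoter peaks at 6.27% and the distal peaks with ZKSCAN4 only at 3.02%. TGANTCA, the AP-1 site, was in 213 (8.71%, 7.66 to 9.90%), against 5.64% of flanks and 3.93% of arm windows. The E-box CAGCTG was in 10.1%, against 8.61% and 8.39%. Of the other motifs, 4 had lower shares in the centres than in the arm windows: TGTGGTT (Runx) at 2.86% against 3.10%, CCGGAA (Ets) at 4.58% against 6.11%, TTCNNNGAA (STAT) at 4.54% against 5.96%, and CAGGTAG, the site of the early embryonic factor Zelda, at 0.45% against 1.09%. None of the 11 motifs was found in 1345 centres (55.0%). The centre windows had 43.6% G and C, the flanks 40.8% and the arms 42.2%.

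**Figure D1:**
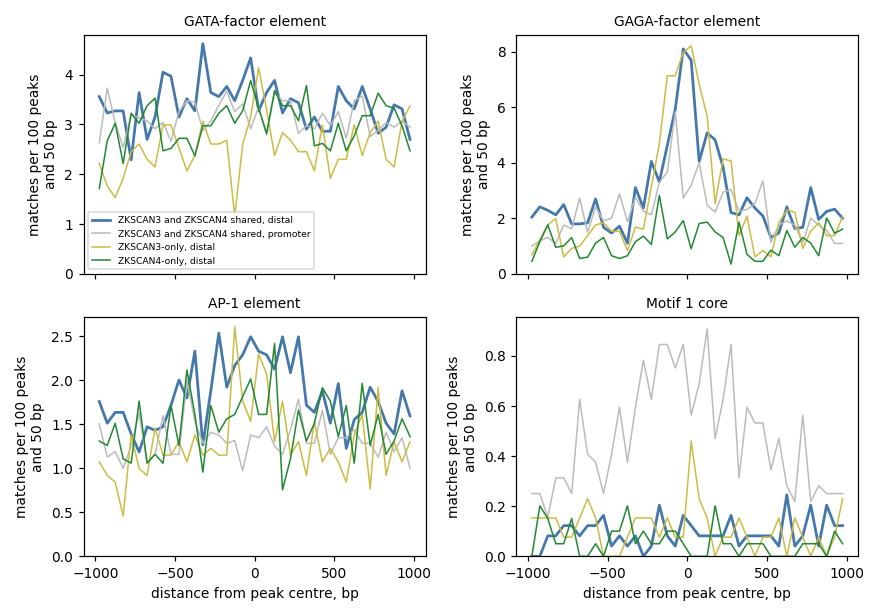
Matches per 100 peaks in bins of 50 bp against distance from the peak centre in bp, for GATA, Motif 1, GAGA and AP-1 letters in the shared distal peaks and in the peak classes they are compared with. GAGA matches rise at the centre of the shared distal peaks, where 8.88% of the central windows hold GAGAGAG, whereas Motif 1 matches rise at the centre of the shared promoter peaks, of which 2.69% hold GGTCACAC.

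Without motifs given in advance, the short words more frequent in the centres than in the flanks were led by GA and CA repeats, and those less frequent by A- and T-rich words. Of all words of 6 letters, AGAGAG showed the largest rise, with 17.1% of centres against 9.33% of flanks, followed by CACACA with 24.4% against 17.0%. Of words of 8 letters, CACACACA showed the largest rise (8.59% against 4.50%), then ACACACAC (7.53% against 4.11%) and GAGAGAGC (4.46% against 1.17%). The largest difference of all was a fall, that of ATTAAA, in 20.7% of centres and 31.1% of flanks. A further pair of words was examined after these shares were seen. CAGATACA was in 107 members (4.38%, 3.63 to 5.26%), 1.98% of flanks and 1.21% of arm windows, and in 4.33% of distal peaks with ZKSCAN4 only, but in 1.76% of those with ZKSCAN3 only and 1.41% of shared promoter peaks. CACACACA went the other way, in 8.59% of members, 10.0% of the ZKSCAN3-only and 2.82% of the ZKSCAN4-only distal peaks.

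The 2 proteins ranked the shared distal peaks differently. The ZKSCAN3 score, the value in the score column of the authors' list for which no unit is given, had a median of 63.0 (13.9 to 211.4) over the 2467 members. It was 106.7 in the shared promoter peaks, 36.0 in the ZKSCAN3-only distal peaks and 77.1 over all ZKSCAN3 peaks. The ZKSCAN4 score of the overlapping peak, that with the largest overlap where there were several, had a median of 41.1 (1.10 to 246.4). Here the order was turned: shared promoter peaks had 31.6, ZKSCAN4-only distal peaks 18.0 and all ZKSCAN4 peaks 27.5. Thus the shared distal peaks lay below the shared promoter peaks in the ZKSCAN3 list and above them in the ZKSCAN4 list. Scores of different lists are not on 1 scale, so only ranks within a list are compared. Across the 2467 members the Spearman correlation of both scores was 0.34, a description over peaks that are not replicates and share chromatin, peak width (0.47 with the ZKSCAN3 score and 0.34 with the ZKSCAN4 score) and library.

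**Figure D2:**
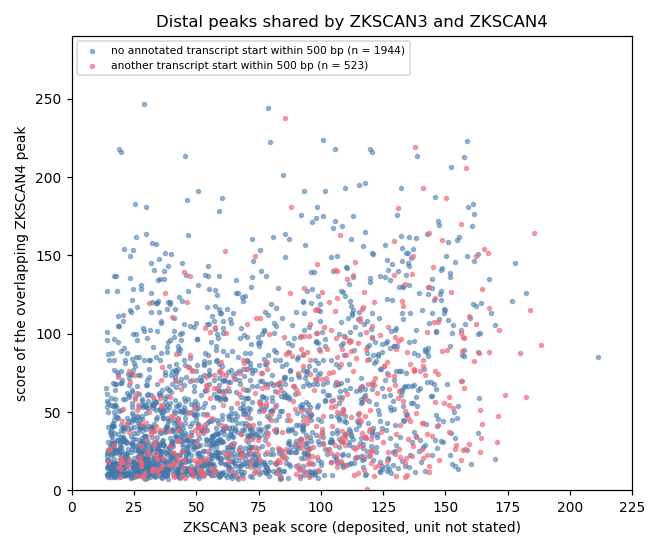
Score of the overlapping ZKSCAN4 peak against the ZKSCAN3 score of each shared distal peak (authors' score column, unit not given). Colour marks members within 500 bp of another annotated transcript start. The shared distal peaks have a median of 63.0 against 106.7 for shared promoter peaks, which are not drawn, in the ZKSCAN3 list, and 41.1 against 31.6 in the ZKSCAN4 list.

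None of the 10 members with the highest ZKSCAN3 score was among the 10 with the highest ZKSCAN4 score. The ZKSCAN3 ranking was led by an exonic peak in bves, a Popeye family gene, at chrX:21060181-21061544 with a ZKSCAN3 score of 211.4 and a ZKSCAN4 score of 85.2. Intronic peaks of Top1 (188.5), Rtnl1 (185.5) and tara (184.0 and 182.5), the gene of a SERTA-like transcriptional coregulator, came next, and the others lay in raskol, a Ras GTPase-activating protein gene, nuf, Tlk, a kinase gene, psq, which encodes the GAGA-binding Pipsqueak, and SNF4Agamma, the gamma subunit of AMP-activated kinase. Of these 10, 9 were in introns, 6 lay within 500 bp of another annotated transcript start and 4 had none of the 11 motifs. The ZKSCAN4 ranking was led by an intronic peak of kibra, a Hippo pathway gene, with a ZKSCAN4 score of 246.4 but a ZKSCAN3 score of 28.8. REPTOR, a transcription factor gene of the TORC1 response, followed with 244.0 (ZKSCAN3 score 78.7), and the list went on with CAP, ap, pnt (222.8, ZKSCAN3 score 158.8), lncRNA:CR44938, ced-6, kuz and a pair of peaks near CG7484 that overlapped a single ZKSCAN4 peak (217.7). Of these 10, 7 were in introns.

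GATA sites showed no steady order over the scores. In 4 equal bins from the lowest to the highest ZKSCAN3 scores, GATAAG was in 15.7, 13.7, 11.1 and 12.4% of members, and by ZKSCAN4 score in 11.5, 13.2, 14.6 and 13.7%. Members with an AP-1 site had a median ZKSCAN4 score of 51.4 against 40.4 in those without. CAGATACA was in 2.92% of the lowest bin by ZKSCAN4 score and in 5.24% of the highest. No test was made across peaks.

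Most of these regions lay in introns. Of the 2445 on the major arms, 1643 had their centre in an intron (67.2%, 65.3 to 69.0%), where introns make up 45.8% of the arm bases over 500 bp from a gene start. Exons held 349 (14.3%, 12.9 to 15.7%) against 23.4% of such bases, and the space between genes held 453 (18.5%, 17.0 to 20.1%) against 30.8%. Annotated transposable elements held 77 centres (3.15%) against 6.56% of these bases. The intron share was 50.3% in the ZKSCAN3-only and 59.2% in the ZKSCAN4-only distal peaks, with intervals (47.6 to 53.0% and 57.0 to 61.4%) that did not reach that of the shared distal peaks. It was 22.1% in the shared promoter peaks, whose place near starts the rule fixed. By class, the median ZKSCAN4 score was 45.9 in introns, 33.0 in exons and 35.6 between genes, while the ZKSCAN3 score was 61.8, 59.4 and 69.3.

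**Figure D3:**
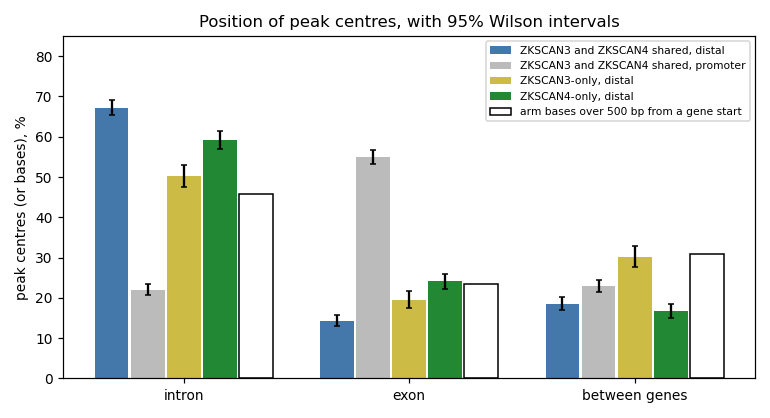
Percent of peak centres in exons, introns and between genes for the shared distal peaks and the classes they are compared with, with 95% Wilson intervals, beside the share of arm bases. Introns hold 67.2% of the shared distal peaks, above the ZKSCAN3-only (50.3%) and ZKSCAN4-only (59.2%) distal peaks.

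The members lay on every arm, with 363 on X, 461 on 2L, 436 on 2R, 582 on 3L, 580 on 3R, 23 on 4 and 5 on Y, and 17 on sequences that carry no gene of the count table. The median distance of the peak edge from the nearest gene start was 4054 bp (502 to 127551 bp, 2450 peaks). It was at most 1000 bp for 9.18% of them, up to 5 kb for a further 1164, up to 10 kb for a further 538 and more for 523. The centre lay downstream of the nearest start in 1575 (64.3%). Distance was counted from 1 start per gene, and 523 members (21.2%, 19.6 to 22.9%) lay within 500 bp of another annotated transcript start.

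The shared distal peaks were 957 bp wide at the median (204 to 8003 bp), wider than the ZKSCAN3-only (506 bp) and ZKSCAN4-only (596 bp) distal peaks and narrower than the shared promoter peaks (1654.5 bp). A wide peak meets an overlap rule more easily, so width is tied to the choice of members. The centres of both proteins' peaks lay 81 bp apart at the median, against 187 bp in the shared promoter peaks, 1982 members (80.3%) overlapped by at least 50% of both peaks, and 698 (28.3%) lay wholly within a ZKSCAN4 peak. Just inside the limits were peaks 502, 506, 507, 507 and 513 bp from a gene start and overlaps of 25, 35, 53 and 68 bp. Just outside were shared peaks 500, 499, 498, 497 and 492 bp from a start, and distal ZKSCAN3 peaks 23, 29, 80, 96 and 98 bp from the nearest ZKSCAN4 peak.

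Ecdysone response genes carried the shared distal peaks more often than any other of 8 gene lists, and they were also the list with the longest genes. Each region was given to the gene that contains its centre or else to the nearest one, which gave 1380 of 17494 genes with members (7.89%), 861 with 1 region, 519 with at least 2 and 89 with at least 5. Among them 114 regions were given to more than 1 gene, and 17 to none. Gene length moved strongly with this share: 2.70% of genes under 5 kb had a member, 21.1% of those of 5 to 20 kb, 43.4% of those of 20 to 50 kb and 50.2% of those of 50 kb or more. Of 14 ecdysone genes 12 had members (85.7%, 53 regions), with a median span of 45.3 kb. The rest of the lists had 7 of 10 JNK and AP-1 genes, 6 of 11 Hox genes and cofactors, 5 of 9 Notch and EGFR genes, 4 of 8 insulin and TOR genes, 4 of 9 actin and adhesion genes, 7 of 18 hemocyte genes and 1 of 20 Atg genes.

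Ecdysone is the steroid hormone that drives larval moults and metamorphosis through the receptor EcR and a cascade of early and late transcription factors. Eip75B, a nuclear receptor gene of the early response, had the most members of all genes, 17 over 113.7 kb, of which 16 lay in introns and 2 held GATAAG. Their ZKSCAN3 scores ran from 27.0 to 118.3 (median 83.4) and their positions from 1.3 to 106.5 kb downstream of the gene start. Eip74EF, an Ets factor gene, had 10 with scores of 33.9 to 162.4 (median 105.4), all in introns. EcR and ftz-f1, the gene of the competence factor for the prepupal response, had 5 each, and br had 4. Hr39, a nuclear receptor gene, had 3 between 11.6 and 14.7 kb from its start with scores of 108.8 to 157.5. In Eip93F, the gene of an autophagy and cell death regulator, all 3 lay between genes, 8.17 to 11.2 kb upstream. Hr4 had 2, and Hr3, Hr38, Eip78C and Blimp-1 had 1 each, while usp and Sox14 had none.

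**Figure D4:**
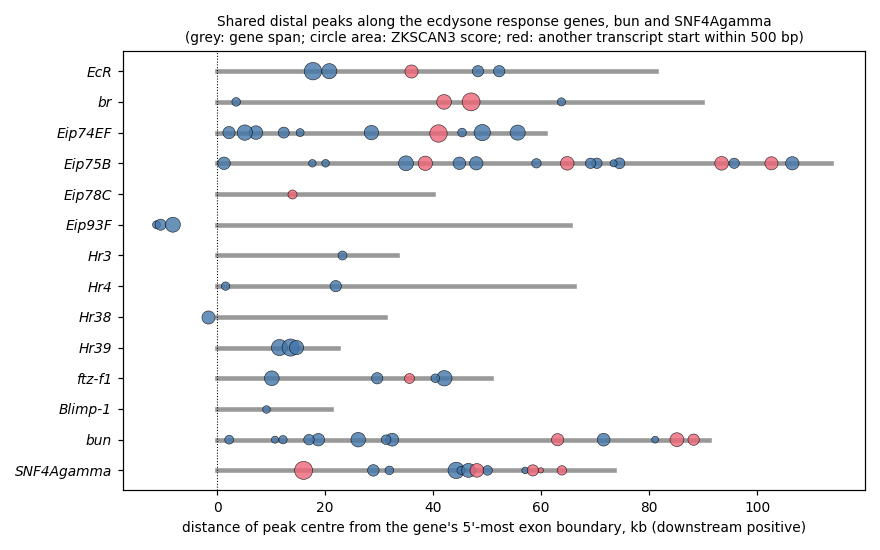
Positions of the shared distal peaks in kb from the gene start for the ecdysone genes with members, bun and SNF4Agamma, with the ZKSCAN3 score of each peak as circle area. Eip75B carries 17 peaks spread over 113.7 kb, and the 3 peaks of Eip93F lie 8.17 to 11.2 kb upstream of its start.

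After Eip75B, the genes with the most members were bun (13, TSC22 family), shn (12, the zinc finger protein Schnurri of Dpp signalling), SNF4Agamma (12), tara (11) and, with 10 each, pnt (an Ets activator of EGFR signalling), Eip74EF, mam (the Notch coactivator Mastermind), kuz (a metalloprotease that cleaves Notch) and mtd. Per 10 kb of gene, tara was the densest of these with 3.17 regions and kuz the sparsest with 1.12. None of the 10 genes had a member with GGTCACAC. In the hemocyte list, ush, a Friend-of-GATA cofactor gene, had 7 regions, zfh1 and Pvr 4 each, srp, the GATA factor gene itself, 3, drpr and vkg 2 and Ppn 1. Of the insulin and TOR genes, foxo had 8 and InR 7, sima 4 and S6k 1. The cell death genes rpr and hid had 4 and 3, and all of those of rpr lay between genes, upstream of its start and 1457 to 7037 bp from any annotated start.

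Atg1, the kinase that starts autophagy, was the only autophagy gene of 20 with shared distal peaks, whereas 14 of the 20 had a shared promoter peak (5362 of all 17494 genes). The genes of this list had a median span of 3.40 kb, and 2.70% of all genes under 5 kb had a shared distal peak. Its 5 regions lay within its 20.7 kb, with ZKSCAN3 scores of 30.1, 112.2, 57.0, 20.8 and 97.5 and ZKSCAN4 scores of 15.3, 17.2, 61.8, 15.8 and 9.96. The one with the highest ZKSCAN3 score lay in an exon and the others in introns, and 3 of them lay nearer to the start of CG42709 than to that of Atg1. The region with a ZKSCAN3 score of 97.5 held GATAAG.

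Fat body RNA was then set beside the genes with members, of which 1195 passed the filter on low counts in the male libraries and 1176 in the female libraries. As the check of the knockdown, M1BP had 16.3 and 16.5 TPM in WT, 9.76 and 8.88 in M1BPi, 13.7 and 15.2 in ZKSCAN3 and 11.03 and 12.7 in M1BPi + ZKSCAN3 (M1BPi against WT log2 fold change −1.27 ± 0.14 SE, edgeR Benjamini-Hochberg FDR 0.00776). Libraries held 53462739 to 76798943 counts in males and 58313885 to 74175081 in females. All 8 fat body markers were found in every library, with a summed level of 295300 to 317100 CPM in WT and ZKSCAN3, 191100 and 230500 in M1BPi, 226800 and 146200 in M1BPi + ZKSCAN3 and 264300 to 309500 in the female libraries. Both groups with M1BP RNAi thus lay below the other male libraries, and the summed testis markers reached at most 26.8 CPM. The salivary gland markers differed within and between groups: 13.8 and 6.12 CPM in WT, 575 and 33.6 in M1BPi, 14.95 and 28.3 in ZKSCAN3, 523 and 708 in M1BPi + ZKSCAN3, 2.60 and 791 in L3F and 13.7 and 42.4 in L3W. The part of either marker list in the results below was not tested. In bulk RNA, fewer cells of a type and less RNA per cell cannot be told apart.

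From feeding to wandering, 120 genes with shared distal peaks rose and 47 fell at an edgeR FDR of 0.001, and 5 of 11 ecdysone response genes among them rose. Of the 1176 tested, those higher in L3W than in L3F were 10.2%, against 4.27% of all 10720 genes, and those lower were 47 (4.0%, against 3.52%). At an FDR of 0.05, 700 differed (59.5%, against 48% of all genes), 472 of them higher (40.1%, against 23.3% of all) and 228 lower (19.4%, against 24.7%). The median log2 fold change was 0.42 for genes with members and −0.01 for all. Since long genes had members more often, the shares were also taken within the length classes, a choice made after the data were seen: genes with members were higher at an FDR of 0.001 in 5.07, 9.57, 15.2 and 9.93% from the shortest to the longest class, and genes without in 3.21, 5.07, 3.74 and 2.24%. They were lower in 6.45, 5.66, 0 and 2.65%, and genes without in 3.77, 2.71, 1.25 and 0.746%. The median log2 fold change in these classes was 0.01, 0.32, 0.64 and 0.65 with members and −0.17, 0.23, 0.57 and 0.80 without, so that the gap between the medians was smaller within each class and turned in the longest. Leaving out 1 library left 29 genes with members past an FDR of 0.001 without L3F replicate 1 and 0 without any other, and at an FDR of 0.05 left 662, 647, 412 and 421 genes, 33.9 to 54.3% of those with members against 20.1 to 39.8% of all. Without L3F replicate 2, the library with 791 CPM of salivary gland markers, it was 53.6% against 39.8%.

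The largest rises among genes with members were those of Sid, a stress-induced DNase, from 1.31 and 0.560 CPM in L3F to 379 and 375 in L3W (log2 change 8.66 ± 0.51 SE, edgeR FDR 0.000819), of CG12912 (8.25 ± 0.52) and of Hr3, a nuclear receptor of the ecdysone cascade, from 0.105 and 0.273 to 56.0 and 56.8 CPM (8.20 ± 0.45). The largest falls were those of ACC, Acsf2 and smp-30. ACC, the acetyl-CoA carboxylase of fatty acid synthesis, went from 658 and 539 CPM to 8.28 and 8.39 (−6.17 ± 0.16), Acsf2, an acyl-CoA synthetase gene, from 105 and 113 to 2.25 and 1.93 (−5.71 ± 0.14) and smp-30 from 69.9 and 124 to 0.388 and 0.581 (−7.63 ± 0.46). That the L3F and L3W libraries did not overlap was a condition for naming these genes and is not a result.

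Of 11 ecdysone genes with members that were tested, 5 rose at an edgeR FDR of 0.001 and 8 at 0.05, and 1 fell. Eip75B went from 37.6 and 34.6 to 340 and 303 CPM (log2 change 3.15 ± 0.11 SE), br from 124 and 94.5 to 774 and 736 (2.79 ± 0.17), Hr39 from 6.31 and 7.22 to 45.4 and 40.7 (2.67 ± 0.13) and Hr4 from 1.67 and 1.33 to 167 and 133 (6.64 ± 0.22), in addition to Hr3. All of these are transcription factor genes of the hormone cascade. Eip74EF (1.21, FDR 0.00517), Eip93F (4.76, FDR 0.0018) and Eip78C (6.85 ± 1.31, FDR 0.016) passed 0.05 only. ftz-f1 fell from 8.29 and 6.29 to 1.31 and 1.68 CPM (−2.28, FDR 0.00341). EcR had 47.9 and 46.0 CPM in L3F and 33.8 and 51.7 in L3W, and Hr38 stayed under 0.4 CPM in all 4 libraries, and neither passed the test.

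Atg1 rose from 16.6 and 15.5 CPM to 234 and 188 (log2 change 3.72 ± 0.15 SE, edgeR FDR 0.000532). Among all genes tested, 23.3% rose and 24.7% fell at an FDR of 0.05, and the counts of the lists are to be read beside these shares. Of 7 hemocyte genes with members, 3 rose and 3 fell: zfh1, a zinc finger homeodomain gene, went from 5.82 and 6.86 to 78.9 and 73.3 CPM (3.58 ± 0.13) and srp from 129 and 113 to 281 and 259 (1.16 ± 0.11), while vkg, a collagen IV gene, went from 797 and 415 to 39.96 and 34.1 (−4.03 ± 0.38). Of 7 JNK and AP-1 genes, 4 rose and none fell at 0.05, among them the matrix metalloproteases Mmp1 (4.53) and Mmp2 (4.95) and the cell death gene hid (2.03), all at under 10 CPM in L3F. Of 4 insulin and TOR genes, foxo (1.31, FDR 0.000987) and InR (1.55, FDR 0.00189) rose and S6k fell (−0.57, FDR 0.0148). Hox genes gave 2 rises of 5 tested, Notch and EGFR genes 1 of 5, and actin and adhesion genes 1 rise and 2 falls of 4. Of the 10 genes with the most members, 7 rose at 0.05 and none fell, with Eip75B, kuz (1.90 ± 0.10) and mam (1.61 ± 0.09) past 0.001.

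**Figure D5:**
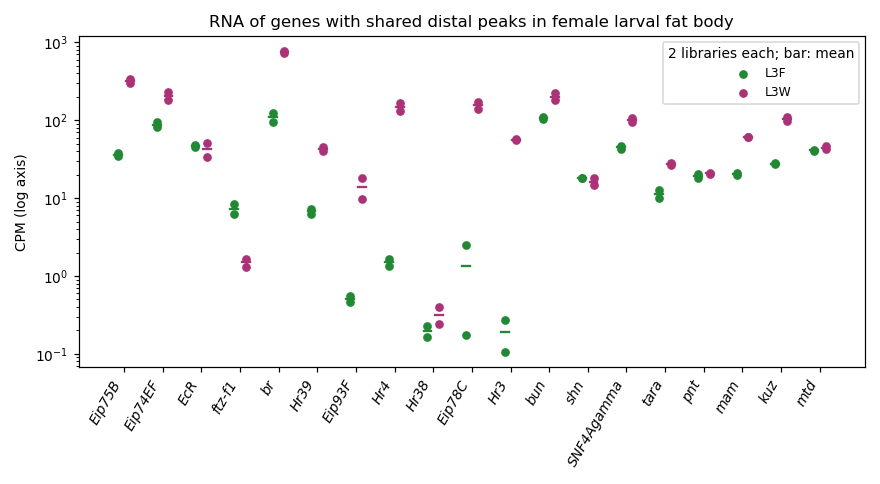
CPM on a log axis in the female L3F and L3W fat body libraries. The genes are the tested ecdysone genes with members and the 10 genes with the most members. Points are the 2 libraries of each group and bars their mean. Of the 11 ecdysone genes tested, 8 are higher in L3W at an edgeR FDR of 0.05. The median log2 fold change, not drawn, is 0.42 for all genes with members against −0.01 for all genes. This gap turns among genes of 50 kb or more (0.65 with members, 0.80 without).

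Loss of M1BP in feeding-stage fat body gave no edgeR call at these genes at the stricter threshold and 151 at the other. None of 1195 passed an edgeR FDR of 0.001 in M1BPi against WT, where 0.0341% of all 11723 genes did, although 430 had an unadjusted p under 0.05 (3467 of all genes). DESeq2, the tool with which the study used this threshold, called 141 (942 of all). At an FDR of 0.05, 86 were higher (7.2%, against 3.93% of all genes) and 65 lower (5.44%, against 4.29%). The largest rises were those of CG43402, from 0.689 and 0.325 CPM in WT to 29.0 and 25.1 in M1BPi (5.75 ± 0.48, FDR 0.00404), wat, a fatty acyl-CoA reductase gene (4.84 ± 0.72), and Sid, from 5.10 and 3.05 to 76.1 and 29.1 CPM (3.69 ± 0.72). The largest falls were those of ACC, AcCoAS and smp-30. ACC went from 1393 and 1504 to 39.4 and 69.7 CPM (−4.73 ± 0.94, FDR 0.0369) and AcCoAS, acetyl-CoA synthetase, from 2155 and 2627 to 214 and 439 (−2.87 ± 0.49), and smp-30 from 161 and 155 to 10.2 and 23.4 (−3.23 ± 0.64). These calls moved with single libraries: without either WT library 0 genes with members passed 0.05, without M1BPi replicate 1, the library with 575 CPM of salivary gland markers, 13 did (1.07%, against 0.931% of all genes), and without M1BPi replicate 2 152 did (12.3%, against 11.7%). The share of genes with members was thus close to that of all genes once either M1BPi library was left out.

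No ecdysone, hemocyte or autophagy gene with members passed an edgeR FDR of 0.05 in any male comparison. Atg1 had 20.3 and 21.3 CPM in WT, 61.7 and 33.4 in M1BPi, 47.6 and 23.8 in ZKSCAN3 and 39.0 and 22.5 in M1BPi + ZKSCAN3 (M1BPi against WT 1.19 ± 0.45, FDR 0.147). All libraries of the other 3 groups were above WT, and the libraries of each of these groups lay far apart. Of the listed genes, if, an integrin gene, fell in M1BPi (−1.41, FDR 0.0378), and of the 10 genes with the most members SNF4Agamma rose, from 54.3 and 54.5 to 99.9 and 94.1 CPM (0.83 ± 0.19, FDR 0.0482).

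HA::ZKSCAN3 in otherwise wild-type fat body gave no call. In ZKSCAN3 against WT, 0 of 1195 genes with members passed an edgeR FDR of 0.001 (0% of all genes) or of 0.05 (0%), 49 had an unadjusted p under 0.05 (384 of all 11723 genes) and DESeq2 called 0. With M1BP depleted, M1BPi + ZKSCAN3 against M1BPi gave 0 at 0.001 (0% of all genes), 264 with an unadjusted p under 0.05 (2104 of all) and 46 by DESeq2 (247 of all). At an FDR of 0.05, 6 genes with members passed (0.502%, against 0.281% of all), 2 higher and 4 lower. dnr1, a regulator of immune signalling, went from 21.3 and 16.03 CPM in M1BPi to 3.01 and 3.11 (−2.61 ± 0.18, FDR 0.00894), CG5853 from 33.9 and 24.7 to 5.83 and 4.92 (−2.45 ± 0.20), CaMKII, the calcium- and calmodulin-dependent kinase, from 34.6 and 35.8 to 17.3 and 14.6 (−1.14 ± 0.14) and CAH7, a carbonic anhydrase gene, rose from 2.24 and 1.58 to 9.16 and 12.9 (2.53 ± 0.29). The largest rise was that of FBgn0283462, which has no symbol in the tables used here, from 1.26 and 1.19 to 16.9 and 16.2 CPM (3.76 ± 0.43, FDR 0.047). Leaving out 1 library at a time changed the number of genes with members past 0.05, so these calls depended on single libraries. The median log2 fold change was then −0.27 to −0.02 for genes with members. For all genes it was −0.18 to 0.03. The interaction of ZKSCAN3 with M1BP loss gave 0 calls at an edgeR FDR of 0.001, among genes with members and among all genes.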

How the data were processed

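ChIP reads were mapped by the authors to dm6, peaks were called with MACS2 at an irreproducible discovery rate of 1% over both replicates, and the deposited lists give each merged peak a score without a stated unit. They were used whole, whereas the study's methods go on to remove highly occupied regions. The deposited RNA tables hold the authors' raw read counts per gene (featureCounts 1.6.1, FlyBase 6.19), in which a read over several genes was counted for each and strand was not used, so overlapping and antisense genes cannot be told apart. Tables of the authors' fold changes and p-values were not used. Deposited columns of samples outside the series numbered 0.

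Peak overlap, distance, position and motif shares were computed with Python 3.11.15, numpy 2.4.6, pandas 2.3.3 and scipy 1.17.1. Gene starts and the classes exon, intron and between genes came from the male count table. Other transcript starts and transposable elements came from the Ensembl release 115 annotation. Shares have 95% Wilson intervals, which cover counting error only, and no p is given across peaks. Counts were tested with edgeR 4.0.16 in R 4.3.3 (TMM, filterByExpr, quasi-likelihood, Benjamini-Hochberg FDR 0.001, the study's threshold, with 0.05 beside it), in 1 model of 8 male and 1 of 4 female libraries, and with DESeq2 1.42.0 as the alternative. The study used its threshold with an earlier version of DESeq2, not with edgeR. A count of 3, the floor, was 0.0391 to 0.0561 CPM. Scripts were checked on simulated counts with 200 changed genes. With 2 libraries per group, p-values rest on the spread between libraries within groups. It was estimated over all groups of a model, with information shared across genes. The genes named were up to 3 with the largest change in each direction, the 10 with the most members, and the members of 8 lists. The first were taken among genes with members past the threshold whose groups did not overlap. Their higher group had a mean of at least 10 CPM. Of 17494 gene identifiers, 17358 were paired with a symbol. Members, lists and tests were chosen with earlier results of these data known. Alternatives left out a library or changed the threshold, tool, replicate block, overlap, promoter width, gene starts, motif window or letters.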

Additional observations from a re-analysis of the deposited data

How the results depend on the processing

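Of the alternatives other than leaving out a library, 22 moved by more than the limit set for them (for counts 1.5 times the value, for shares the 95% interval) and 41 did not, among them counts of 0 that were 0 again. The number of shared distal peaks was 1982 with at least 50% overlap of both peaks, 2242 with promoters of 1000 bp and 1950 with every annotated transcript start, but 789 with the higher-scoring 50% of each list. Over the whole peak the shares were 49.7% for GATAAG, 2.66% for GGTCACAC, 29.0% for GAGAGAG and 35.8% for TGANTCA, and in the flanks 10.8% for GATAAG, 3.58% for GAGAGAG and 5.64% for TGANTCA. With shorter letters the shares were 38.6% for GATA (36.5% of flanks) and 1.47% for Motif 1 (1.39% of flanks). No background of the length of the whole peaks was taken. With every transcript start, exons held 10.2% and the space between genes 23.4%, and 35.7% of peaks had any base in an exon. For genes with members, DESeq2 called 141 in M1BPi against WT (942 of all genes, against 4 by edgeR), 46 in M1BPi + ZKSCAN3 against M1BPi (247 against 0) and 572 in L3W against L3F (3729 against 835), and 10 of all genes (edgeR 0) in ZKSCAN3 against WT. At an edgeR FDR of 0.05 these were 151, 6 and 700 (964, 33 and 5146 of all genes). Leaving out 1 library gave 0 to 29 calls in L3W against L3F and 0 in the male comparisons at 0.001. Deviations of libraries with the same replicate number correlated at 0.317 for WT with M1BPi and 0.34 for ZKSCAN3 with M1BPi + ZKSCAN3. They correlated at 0.193 for M1BPi with M1BPi + ZKSCAN3. The other male pairs lay between −0.02 and −0.00253, and the female pair at −0.000944. Whether the numbers pair the libraries was not tested. With a replicate block the calls were 0 in every comparison, against 167 in L3W against L3F without it. The floor of 3 counts lay at 0.0391 to 0.0561 CPM, and what depth or the number of libraries contributes to the precision was not tested.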
